A study of Rattus norvegicus with 6 samples.

Results

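The genes described here are a list of 50 cell cycle and DNA replication genes, read in whole rat lung after inhalation of particles. They cover cyclins with their kinase Cdk1, the E2f1 and Foxm1 transcription factors, the proteins that license and unwind replication origins, suppliers of DNA precursors, the mitotic kinases and the spindle checkpoint, the ubiquitin ligase steps that end mitosis, and proteins of the kinetochore, spindle and cleavage furrow. A gene was a member where the gene name of an array probe matched the list, with older names accepted. By that rule 47 of the 50 were on the array, out of 36374 genes and unnamed features. Cks1b had no named probe, and the probes of Mki67 and Mcm3 carried only a transcript identifier, so that these 2 were read through the probe description and are given apart from the counts. Of the 47, 45 entered the test; Cenpf and Nusap1 were not well above background on every array of any group. Of the 45, 39 were well above background on all 21 arrays used. The exceptions were Cdt1 and Mcm4 (20 arrays each), Mcm5 (18), Tk1 (17), Cdc6 (16) and Kif11 (11).

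The study exposed male Wistar rats, 9 weeks old, in whole-body chambers for 6 hours a day, 5 days a week, over 4 weeks. The rats breathed clean air (the control), C60 fullerene, which is a cage-shaped carbon molecule, or ultrafine nickel oxide (NiO), which the submitters call their positive control. No genotype or drug separated the groups. Lungs were taken 3 or 33 days after exposure ended, called 3 days and 1 month here, flushed with saline, and RNA from right lungs was hybridised to 1-colour Agilent whole rat genome arrays. The 21 arrays comprised 3 control, 2 C60 and 4 NiO arrays at 3 days and 4 of each group at 1 month. The stated group sizes imply 1 rat per array, which no label spells out, and the p-values measure the spread between arrays. Whole lung mixes many cell types, and more dividing cells cannot be told apart from more RNA per dividing cell.

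A cell that enters the cycle switches on its replication genes first. Cyclin E and E2f factors start this step, Cdc6 and Cdt1 load the Mcm helicase on origins, and geminin (Gmnn) blocks a second loading. Later, cyclin A and B with Cdk1 drive the cell into mitosis, the checkpoint kinases hold it until chromosomes are attached, and Cdc20 and Ube2c mark securin and cyclin B for destruction. In resting adult lung few cells divide, and transcripts of these genes are used as marks of proliferation. Many genes of the second wave carry a CHR element, often with CCAAT boxes nearby, through which the DREAM and Myb-MuvB complexes act. Many of the first wave carry E2F sites.

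The following promoter stretches are shown because they hold these words in members on which the results turn. Each is the 250 bases before the annotated start in the RefSeq table of assembly GRCr8, written 5′ to 3′ on the gene's strand. Capitals mark matches on either strand to the CHR word TTTGAA, to CDE with CHR, which is that word after GCGG or after GCGC at a distance of 4 bases and so overlaps CHR, to CCAAT, and to E2F. The E2F words searched were TTGGCGC and the variant TTCCCGC, together with the variants TTCGCGC and, last, TTGCCGC. The first 3 belong to Cdk1 (chr20:19265043-19265292, plus strand), the Cdk1-binding subunit Cks2 (chr17:13727520-13727769, minus strand) and topoisomerase Top2a (chr10:84473094-84473343, minus strand), all higher in NiO lungs at 3 days. The last 2 belong to the helicase subunits Mcm5 (chr19:13488563-13488812, plus strand) and Mcm6 (chr13:42404353-42404602, minus strand), which were higher in NiO lungs at 1 month.
Cdk1: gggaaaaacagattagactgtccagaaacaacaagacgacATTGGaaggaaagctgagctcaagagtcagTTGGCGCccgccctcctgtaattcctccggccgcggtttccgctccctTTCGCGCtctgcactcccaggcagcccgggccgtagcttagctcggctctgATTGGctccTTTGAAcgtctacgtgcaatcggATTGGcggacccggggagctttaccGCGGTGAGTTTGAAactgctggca
Cks2: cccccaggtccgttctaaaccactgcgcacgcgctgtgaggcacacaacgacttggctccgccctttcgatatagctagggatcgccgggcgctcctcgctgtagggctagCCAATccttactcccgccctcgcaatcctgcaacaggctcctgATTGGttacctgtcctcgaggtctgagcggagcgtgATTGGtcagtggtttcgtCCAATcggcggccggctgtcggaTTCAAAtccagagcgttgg
Top2a: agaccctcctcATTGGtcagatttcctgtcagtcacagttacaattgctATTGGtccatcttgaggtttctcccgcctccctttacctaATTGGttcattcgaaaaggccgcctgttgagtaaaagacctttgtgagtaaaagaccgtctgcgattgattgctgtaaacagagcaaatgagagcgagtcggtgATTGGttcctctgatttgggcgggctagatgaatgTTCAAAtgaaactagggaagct
Mcm5: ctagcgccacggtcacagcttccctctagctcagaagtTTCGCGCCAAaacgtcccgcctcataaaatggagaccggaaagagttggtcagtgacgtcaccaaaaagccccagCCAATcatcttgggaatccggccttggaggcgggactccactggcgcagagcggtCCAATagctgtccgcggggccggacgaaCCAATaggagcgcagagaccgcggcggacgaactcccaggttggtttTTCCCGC
Mcm6: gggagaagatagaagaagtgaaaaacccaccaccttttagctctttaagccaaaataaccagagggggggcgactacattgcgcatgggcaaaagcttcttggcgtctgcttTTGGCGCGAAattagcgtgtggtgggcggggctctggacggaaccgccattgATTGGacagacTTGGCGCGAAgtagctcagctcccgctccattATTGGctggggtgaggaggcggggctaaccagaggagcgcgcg
In these windows Cdk1 had 2 CHR, 1 of them with CDE, 3 CCAAT and 2 E2F matches. Cks2 and Top2a each had 1 CHR and 4 CCAAT matches and no E2F match. Mcm5 had 3 CCAAT and 3 E2F matches and Mcm6 2 CCAAT and 4 E2F matches, with no CHR in either.

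The table held promoters of 35 of the 47 members, each with 250 bases before and 50 after the start, beside 27457 promoters in all. CHR was found in 19 of 35 members (54.3%) against 18.2% of all promoters, and CDE with CHR in 6 (17.1%) against 0.0911%. At least 2 CCAAT words were found in 16 members (45.7%) against 11.4%, and E2F in 13 (37.1%) against 9.92%. Among the 18 members with a promoter that were called higher in NiO lungs at 3 days, 12 (66.7%) held CHR and 4 (22.2%) E2F. Among the 15 other tested members, 5 (33.3%) held CHR and 9 (60%) E2F. All 6 licensing and helicase members with an entry held E2F, and 1 of them, Mcm2, held CHR. Both windows were looked at before the full entry was kept. In the 250 bases before the start alone, CHR was in 11 members (31.4%) against 16.1% of all promoters, and in 7 (38.9%) of the 18 against 4 (26.7%) of the 15. E2F in that window was in 10 members (28.6%) against 7.92%, and in 3 (16.7%) of the 18 against 7 (46.7%) of the 15. These are counts of letters, given with no test, and say nothing of what binds there.

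**Figure D1:**
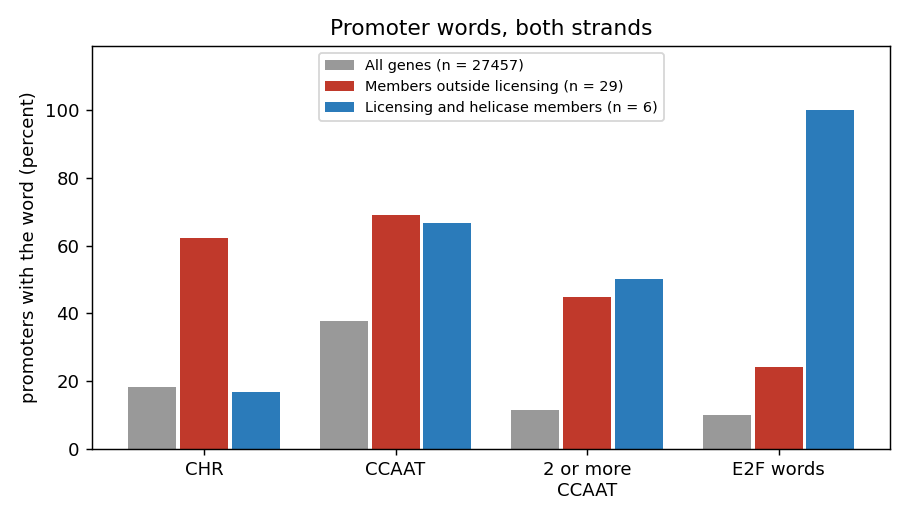
Percent of promoters (300 bases around the annotated start, both strands) that hold each word, for all 27457 genes, the 29 members outside licensing and the 6 licensing and helicase members with an entry. CHR was in 62.1% of the 29 members, 16.7% of the 6 and 18.2% of all promoters, and E2F in 24.1%, 100% and 9.92%.

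Values are log2 of the scanner's processed signal minus the 75th percentile of that array, so a value of 0 is the array's upper quartile; levels are read within a gene, never between genes. Folds, standard errors (SE) and p-values come from 1 limma fit over the 6 groups, adjusted by Benjamini-Hochberg over all 24933 genes and features tested, and a gene was called at an adjusted p under 0.05. Each of the 6 slides held 1 group and each time was scanned on 1 day, so a slide cannot be told apart from its group, nor a scan day from its time. Between 57.4% and 78.3% of spots were well above background. The lowest shares were those of both C60 arrays at 3 days, whose negative controls also read highest. On the first principal component of all genes (32% of variance) NiO arrays 2 and 3 at 3 days (108 and 113) stood apart from NiO arrays 1 and 4 (0.864 and 33.6), so counts are also given without them. All 9 alveolar type II, 7 type I and 9 endothelial marker genes on the array were well above background on some array.

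At 3 days after NiO, 23 of 45 members were higher than in clean air and 1 was lower. Among all genes 11.1% were called higher and 7.88% lower, so the higher share of members (51.1%) lay above that background and the lower share (2.22%) below it. The median log2 fold was 0.54 over the members and 0.04 over all genes. The calls included cyclins E, A and B, Cdk1, geminin, topoisomerase II alpha, spindle checkpoint kinases, securin and the proteins that position the cleavage furrow. Without NiO arrays 2 and 3 together 15 members and 993 of all genes were higher, against 2771 genes with them. In a fit of the 3-day control and NiO arrays alone 10 members and 556 genes were. The 10 calls that every other setting and every array left out kept were Ccna2, Ccnb1, Ccnb2, Cdk1, Top2a, Ttk, Nuf2, Kif20a, Racgap1 and Ect2.

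**Figure D2:**
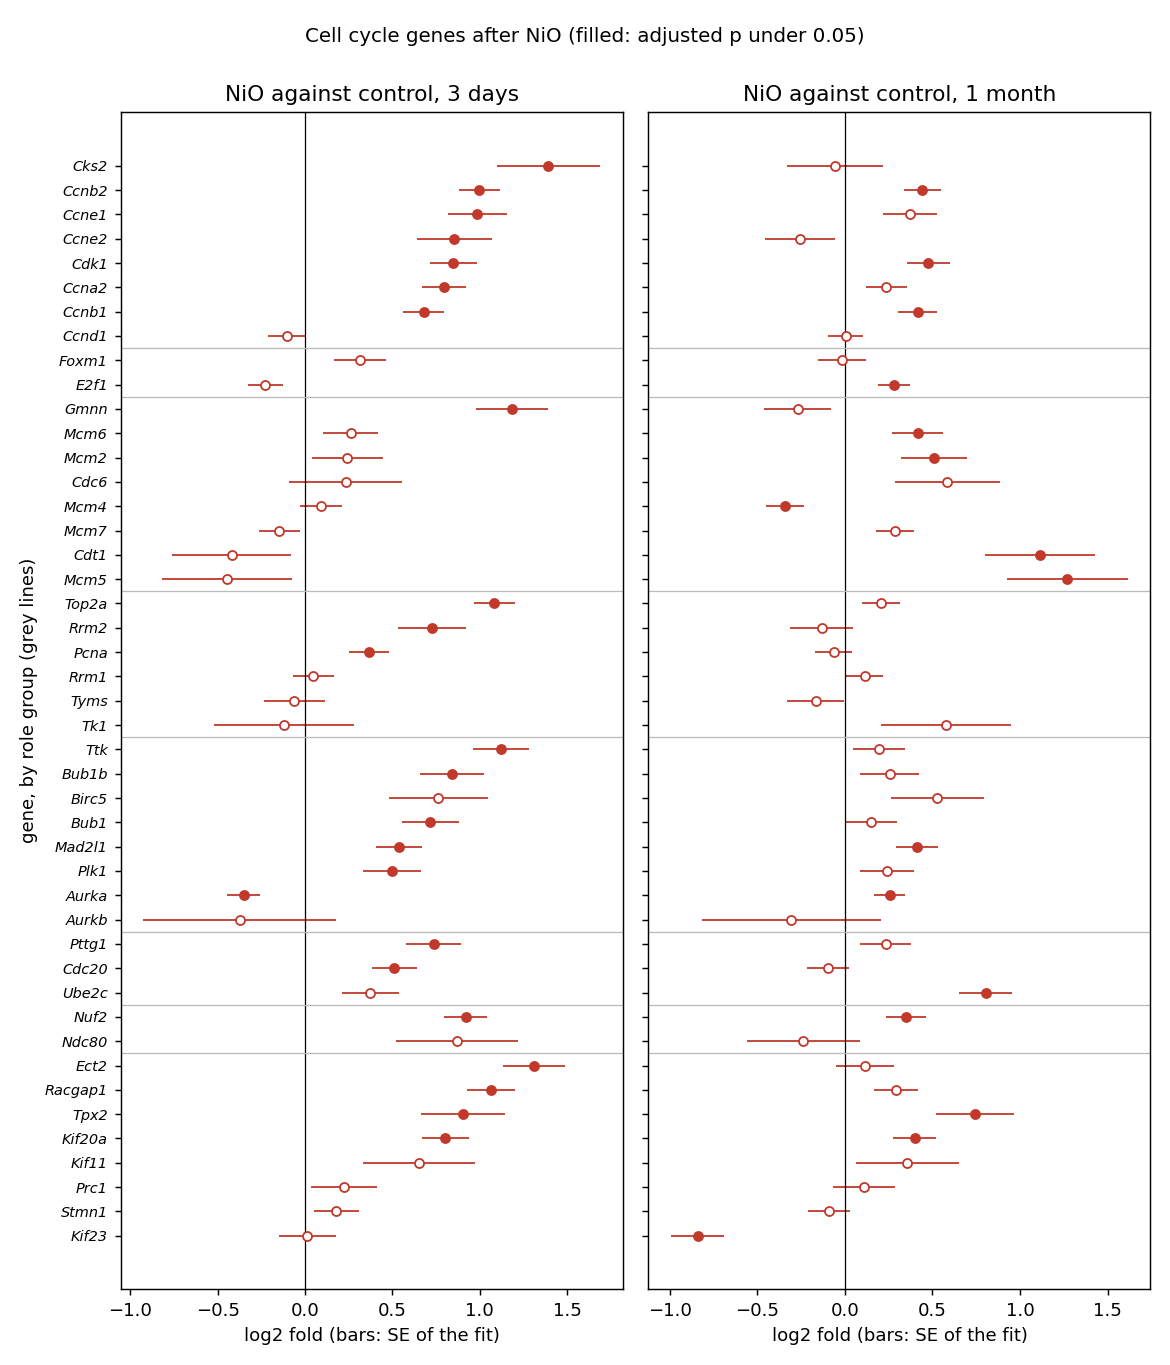
Log2 fold of each member, with its standard error, in NiO against control at 3 days and at 1 month, grouped by role; filled points were called. At 3 days 23 of 45 members were called higher and 1 lower, and at 1 month 14 were called higher and 2 lower.

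Cyclins, Cdk1 and its small subunit made up the group with most calls, 7 higher of 8 tested, with a median log2 fold of 0.85. Cks2, which docks Cdk1 on its substrates, read -4.51, -3.83 and -3.52 on the control arrays, -3.39 and -3.41 on the C60 arrays, and -3.47, -2.50, -2.04 and -2.23 on the NiO arrays. All NiO arrays lay above the control arrays, array 1 by little, and the C60 arrays used lay just above NiO array 1 and below the other 3. Of C60 arrays 3 and 4, which entered only an alternative, array 3 (-2.2) lay above NiO arrays 2 and 4, and array 4 read -2.72. Cks2 was 2.63-fold higher in NiO (log2 fold 1.39, SE 0.30, adjusted p = 0.00443), a call not made without NiO arrays 2 and 3. Ccnb2, one of the mitotic B cyclins, read -2.65, -2.78 and -2.64 in control lungs, -2.36 and -2.35 after C60, and -1.78, -1.73, -1.65 and -1.62 after NiO. On the arrays used the 3 groups did not overlap and their spread was small, but C60 array 3, not used, read -1.69, within the NiO range. Its log2 fold was 1.00 in NiO (SE 0.11, adjusted p = 1.96e-05).

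Ccne1, a cyclin that starts replication with Cdk2, was also higher (log2 fold 0.99, adjusted p = 0.000828), as were Cdk1 (0.85, adjusted p = 0.000447), Ccna2 (0.80) and Ccnb1 (0.68). Ccne2, the other E cyclin, read -3.37, -3.53 and -3.81 on control arrays, -3.00 and -3.88 on C60 arrays and -3.08, -2.49, -2.37 and -2.93 on NiO arrays. NiO and control arrays did not overlap (log2 fold 0.85, SE 0.21, adjusted p = 0.0123), while the 2 C60 arrays spanned the whole control range. The call on Ccne2 was lost without control array 3 (adjusted p = 0.0631), and its other kept probe gave 0.57 and was not called. The exception in the group was Ccnd1, cyclin D1, which links growth signals to the cycle. Its log2 fold was -0.10, and its other kept probe gave -0.61, also not called.

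**Figure D3:**
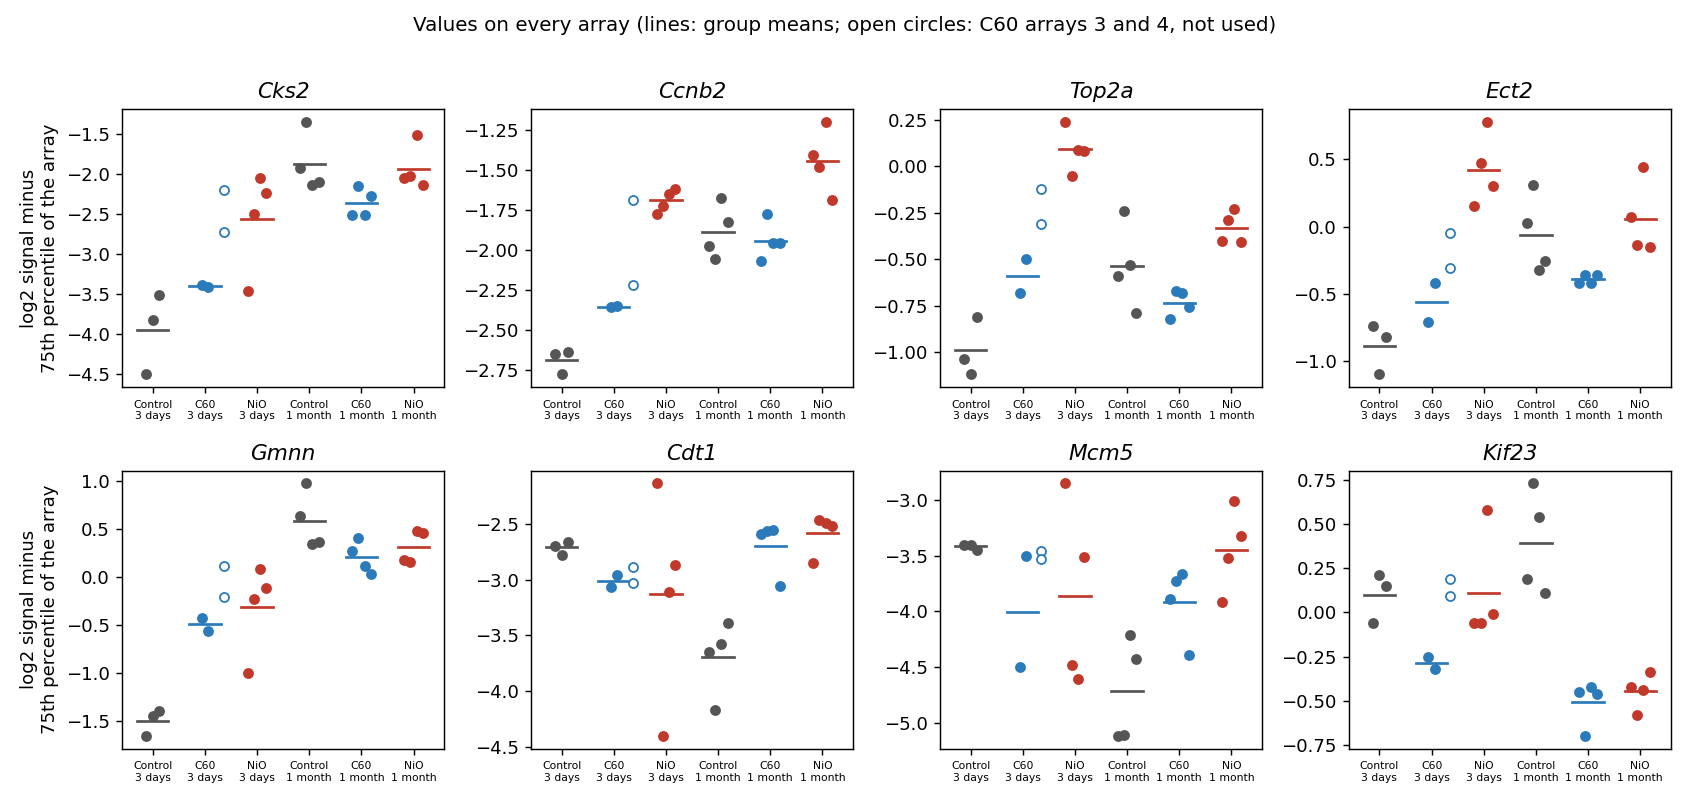
Log2 signal relative to the array's 75th percentile of 8 members on every array, by group, with a bar at each group mean; open points are the 2 C60 arrays at 3 days that entered only an alternative. Cks2, Ccnb2, Top2a, Ect2 and Gmnn had their lowest group mean in the 3-day control arrays, and Cdt1 and Mcm5 in the 1-month control arrays.

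Of the licensing factors and helicase subunits 1 of 8 (12.5%) was called higher at 3 days, near the 11.1% of all genes. That one was geminin, which binds Cdt1 and keeps origins from being licensed again. Gmnn read -1.66, -1.45 and -1.40 on control arrays, -0.43 and -0.57 on C60 arrays, and -1.0, -0.23, 0.08 and -0.12 on NiO arrays. Every array of both particle groups lay above every control array, and NiO array 1 was the lowest of the NiO arrays. The log2 fold in NiO was 1.19 (SE 0.21, adjusted p = 0.00101).

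Of the helicase subunits at 3 days, Mcm6 had a log2 fold of 0.26, Mcm2 0.24, Mcm4 0.09, Mcm7 -0.15 and Mcm5 -0.44, and Mcm3, read outside the rule, -0.05. The loaders Cdc6 and Cdt1 had 0.23 and -0.42. None of these passed limma's adjusted threshold or had an unadjusted p under 0.05. For Mcm5 and Cdt1 the NiO arrays were wide apart. Cdt1 read -2.14, -4.40, -3.11 and -2.87 on them, around control values of -2.70, -2.78 and -2.66. Mcm5 read -2.85, -4.48, -4.61 and -3.51 in NiO, around -3.40, -3.40 and -3.45 in control lungs. NiO array 1 was the highest and arrays 2 and 3 were the lowest for both genes. Mcm5 was well above background on only 2 of these 4 NiO arrays and Cdt1 on 3.

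E2f1 and Foxm1, transcription factors of the first and the second wave, had log2 folds of -0.23 and 0.31 and were not called. Of the genes for DNA precursors, the fork and topology, 3 of 6 were higher. Top2a, which untangles sister DNA before mitosis, read -1.04, -1.12 and -0.81 on control arrays, -0.68 and -0.50 on C60 arrays, and 0.24, -0.05, 0.09 and 0.08 on NiO arrays. The groups were cleanly apart, with C60 between the other 2. Its log2 fold in NiO, 1.08 (SE 0.12, adjusted p = 1.19e-05), came from the brighter of 2 probes; the other probe gave 0.45 and was not called.

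Rrm2, the regulated subunit of ribonucleotide reductase, read -3.26, -3.01 and -2.64 in control lungs, -3.05 and -2.95 after C60, and -2.07, -2.71, -2.10 and -2.09 after NiO. NiO array 2 lay within the control range. Its log2 fold was 0.73 (SE 0.19, adjusted p = 0.0173), lost without control array 1 or 2 or NiO array 3. The sliding clamp Pcna had a log2 fold of 0.37 (adjusted p = 0.0346), while its other kept probe gave -0.33 and the mean of its probes was not called. Rrm1 and Tyms, other precursor enzymes, had 0.05 and -0.06. The probe named for thymidine kinase Tk1 had -0.12, but the files place it on chromosome 3 of rn4 while the RefSeq table has the gene on chromosome 10, so it may not read Tk1.

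Among mitotic kinases, checkpoint proteins and chromosomal passengers 5 of 8 were higher and 1 was lower. Ttk, the kinase also called Mps1 that starts the spindle checkpoint, read -3.06, -3.02 and -2.71 on control arrays, -2.53 and -2.79 on C60 arrays, and -2.05, -1.95, -1.66 and -1.59 on NiO arrays. NiO arrays were above the other arrays used at this time (log2 fold 1.12, SE 0.16, adjusted p = 0.000172), and C60 and control arrays overlapped. C60 array 3, which entered only an alternative, read -1.73, within the NiO range. Bub1b, the checkpoint protein BubR1, read -1.93, -1.66 and -1.63, then -1.65 and -1.52, and -1.31, -0.91, -0.69 and -0.68 in the same order of groups. On the arrays used it separated NiO from the rest (log2 fold 0.84, SE 0.18, adjusted p = 0.00519). C60 arrays 3 and 4, not used, read -0.83 and -1.22 for Bub1b, within the NiO range. Bub1 (0.72), Mad2l1 (0.54) and the kinase Plk1 (0.50, adjusted p = 0.0432) were the other calls. Plk1 was lost without any 1 of 6 arrays, and its other kept probe gave 0.47 and was not called. The passenger Birc5 (0.76, adjusted p = 0.0674) was not called, nor was the kinase Aurkb (-0.37), whose NiO arrays ran from -1.79 to 1.09.

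Aurka, the kinase that matures spindle poles, ran against the others. It read -1.16, -1.19 and -1.25 on control arrays, -0.54 and -0.70 on C60 arrays and -1.53, -1.78, -1.37 and -1.54 on NiO arrays. The 3 groups did not overlap, with C60 at the top and NiO at the bottom. NiO fell by 0.35 on the log2 scale (SE 0.10, adjusted p = 0.0194) and the call was lost without control array 1 or 2 or NiO array 2.

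Of 3 genes of securin and the anaphase ligase 2 were called higher, and of 2 kinetochore genes 1. Pttg1, securin, which holds sister chromatids together until anaphase, read -0.04, 0.44 and 0.38 on control arrays, 0.03 and 0.51 on C60 arrays and 0.64, 1.03, 1.13 and 1.18 on NiO arrays. Control and C60 arrays overlapped, and all NiO arrays lay above both (log2 fold 0.74, SE 0.16, adjusted p = 0.00443). Cdc20, the activator of the anaphase ligase, was called (0.51) and its E2 partner Ube2c was not (0.37). Nuf2, an outer kinetochore subunit, read -2.36, -2.26 and -2.06 in control lungs, -2.15 and -2.01 after C60, and -1.24, -1.47, -1.23 and -1.29 after NiO. On the arrays used NiO was apart from both (log2 fold 0.92, SE 0.12, adjusted p = 9.5e-05). C60 array 3, not used, read -1.15, above all NiO arrays, and array 4 read -1.41, within their range. Ndc80, the partner of Nuf2, had 0.87 with a wide spread (adjusted p = 0.0864).

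Spindle and cytokinesis genes gave 4 calls of 8, all higher. Ect2, the exchange factor that starts the cleavage furrow, read -0.74, -1.10 and -0.82 on control arrays, -0.71 and -0.42 on C60 arrays and 0.15, 0.47, 0.78 and 0.30 on NiO arrays. Racgap1, its partner in the centralspindlin complex, read -1.05, -1.02 and -0.98, then -0.95 and -0.80, and -0.05, -0.10, 0.10 and 0.24. For both, every NiO array was above every control and C60 array. The log2 folds were 1.31 (SE 0.18, adjusted p = 0.000103) and 1.06 (SE 0.14, adjusted p = 6.63e-05). Tpx2 (0.90) and Kif20a (0.80) were the other calls. Kif23, the motor subunit of the same centralspindlin complex, had 0.01, Prc1 0.22 and Stmn1 0.18. Kif11 was not well above background on any 3-day control array, so its fitted value is no measured fold.

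Mki67, the Ki-67 gene used to count cycling cells, lay outside the rule and is given for reference. It read -0.75, -0.52 and -0.37 on control arrays, -0.29 and -0.28 on C60 arrays and 0.18, -0.15, 0.28 and 0.43 on NiO arrays. NiO and control arrays did not overlap (log2 fold 0.73, SE 0.13, adjusted p = 0.00154), though only 1 of its 2 kept probes was called.

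Markers of cell types shifted between the same groups, where 11.1% of all genes were called higher and 7.88% lower. Macrophage markers, averaged over 10 genes relative to the mean of all arrays, ranged from -0.11 to -0.04 in 3-day control arrays and from 0.29 to 0.49 in NiO arrays. Only 2 of the 10 genes, Cd68 and Msr1, were called higher. Both are in this average, so it does not show a rise of the whole list. The 9 endothelial markers ranged from 0.34 to 0.39 and from -0.23 to 0.12, with 4 lower. The neutrophil gene Cd177 (log2 fold 4.47), the T cell gene Cd2 (0.69) and the plasma cell gene Jchain (2.12) were each the only call of their list. Control and NiO means of these lists were -0.043 and 0.336 over 6 neutrophil, -0.188 and -0.145 over 8 T cell and -0.305 and -0.302 over 6 B cell genes. These means include the called genes, so the other genes of each list fell on average, those of the T cell list by little. Of the epithelial lists, 2 of 9 type II markers were higher, 1 of 7 type I markers was higher and 2 were lower, and 2 of 5 club cell markers and 1 of 6 ciliated markers were lower. The members, averaged the same way, ranged from -0.42 to -0.18 in control and from -0.01 to 0.32 in NiO arrays. The part of cell composition in the member values was not tested.

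**Figure D4:**
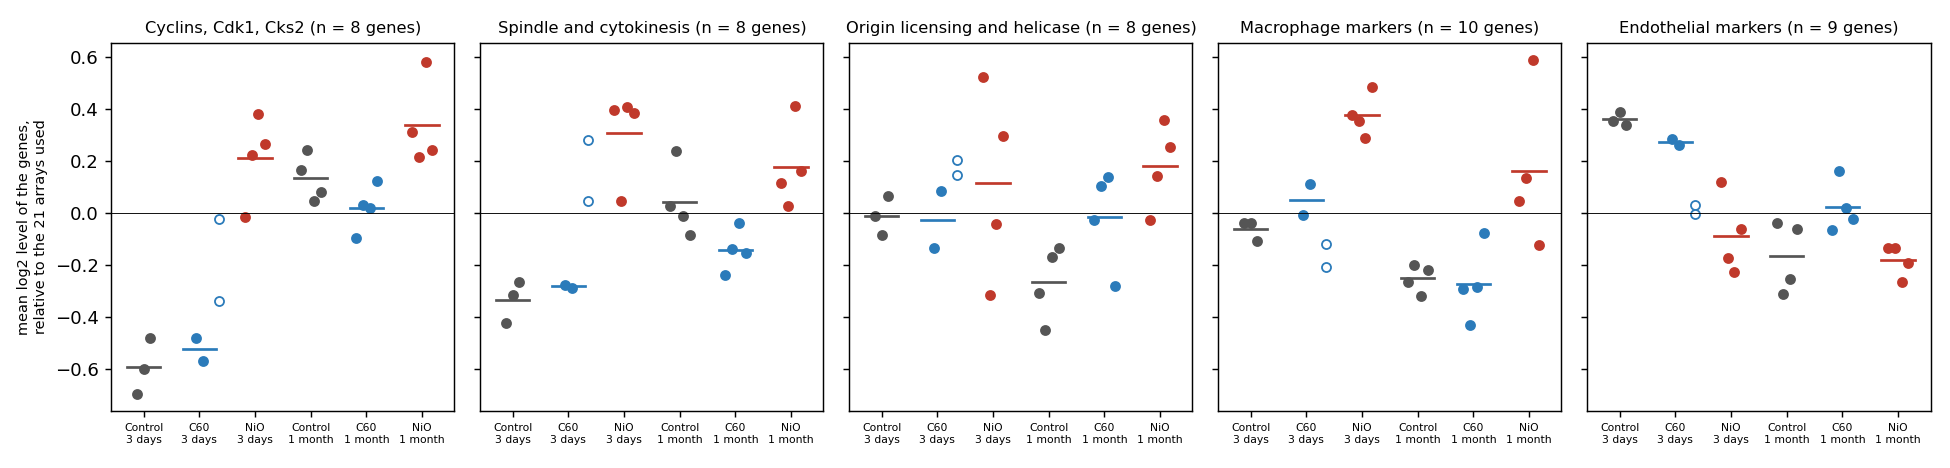
Mean log2 signal per array of 3 role groups of members and of the macrophage and endothelial markers, relative to the mean of each gene over the 21 arrays, by group; lines are group means and open points the 2 C60 arrays that entered only an alternative. Macrophage markers were at 0.29 to 0.49 on the NiO arrays at 3 days and -0.11 to -0.04 on the control arrays, and endothelial markers were at -0.23 to 0.12 and 0.34 to 0.39. The macrophage means include Cd68 and Msr1, the only genes of that list called higher at 3 days.

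One month after NiO, 14 of 45 members were higher than in clean air and 2 lower. The background was 11.9% higher and 18.9% lower among all genes, with medians of 0.24 over members and -0.12 over all genes. These counts moved with the scale. Minus the array median the all-gene median was 0.21, and 27 members and 7584 of all 24933 genes were higher. After quantile normalization the all-gene median was 0.02. The members' median lay above that of all genes by 0.37, 0.37 and 0.28 in the 3 scalings. Without NiO array 3 the count fell to 6 members. Over all genes the higher calls fell from 2975 to 1967 without it, and to 1987 without NiO array 2. Array 3 had the highest member mean of the study (0.44) and the highest macrophage marker mean (0.59). Macrophage markers ranged from -0.32 to -0.20 on the 1-month control arrays and from -0.12 to 0.59 on the NiO arrays, with 4 of 10 called higher. Of the type II markers 3 of 9 were higher, and 3 of 6 ciliated, 3 of 6 fibroblast and 2 of 9 endothelial markers were lower. The part of these shifts in the member values was not tested.

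Licensing and helicase genes gave the most calls at this time, with 4 of 8 higher and 1 lower, beside 3 of 8 higher among the cyclins. Mcm5, a subunit of the Mcm2 to Mcm7 ring, read -5.12, -5.11, -4.21 and -4.43 on control arrays, -3.89, -3.73, -3.66 and -4.39 on C60 arrays and -3.92, -3.52, -3.01 and -3.32 on NiO arrays. All NiO arrays were above all control arrays, and C60 array 4 reached into the control range. The log2 fold was 1.27 (SE 0.34, adjusted p = 0.0121). Cdt1, which brings the ring to origins, read -3.65, -4.17, -3.58 and -3.39 in control lungs, -2.59, -2.57, -2.56 and -3.06 after C60 and -2.85, -2.47, -2.49 and -2.52 after NiO. Both particle groups lay above the control arrays and overlapped each other. The log2 fold of NiO was 1.12 (SE 0.31, adjusted p = 0.0142), lost without control array 2 (adjusted p = 0.0516).

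Both genes had fallen in the control lungs between the times. The control mean of Mcm5 was -3.42 at 3 days and -4.72 at 1 month (log2 fold -1.30, adjusted p = 0.00913), and its NiO mean at 1 month was -3.45. The control means of Cdt1 were -2.71 and -3.70, and its NiO mean at 1 month was -2.58. Mcm2 (0.51, adjusted p = 0.0487) and Mcm6 (0.42, adjusted p = 0.0389) were the other licensing calls, each lost without any 1 of several arrays.

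Mcm4 was called the other way. It read -3.70, -3.97, -3.94 and -3.95 on control arrays, -4.40, -4.41, -4.22 and -4.14 on C60 arrays, and -4.28, -4.32, -4.34 and -4.00 on NiO arrays. The control arrays were highest, NiO array 4 next to them. NiO fell by 0.34 on the log2 scale (SE 0.11, adjusted p = 0.0282), but after quantile normalization the sign turned (0.18, adjusted p = 0.435).

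Other calls at 1 month were in mitosis genes. Ube2c, the ligase partner of Cdc20, read -2.33, -2.50, -1.83 and -2.02 on control arrays, -1.95, -1.75, -1.93 and -1.99 on C60 arrays and -1.36, -1.45, -1.03 and -1.62 on NiO arrays. NiO arrays were above both other groups (log2 fold 0.80, SE 0.15, adjusted p = 0.00168). Tpx2, a spindle assembly factor that activates Aurka, was higher by 0.74, Cdk1 by 0.48, Ccnb2 by 0.44, Ccnb1 by 0.42, Mad2l1 by 0.41, Kif20a by 0.40, Nuf2 by 0.35, E2f1 by 0.28 and Aurka by 0.26. Ccnb2, Nuf2 and Mcm2 overlapped between NiO and control arrays.

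Kif23 was lower after NiO at this time. It read 0.19, 0.73, 0.54 and 0.11 on control arrays, -0.45, -0.70, -0.42 and -0.46 on C60 arrays and -0.42, -0.58, -0.44 and -0.34 on NiO arrays. Both particle groups lay below every control array and overlapped each other. NiO fell by 0.84 (SE 0.15, adjusted p = 0.00124) and C60 by 0.90 (adjusted p = 0.00154) on the log2 scale. Both calls held under every alternative and without any 1 array, and both rest on the same 4 control arrays. Racgap1, the other centralspindlin subunit, was called neither way at 1 month by its brightest probe, though not all of its kept probes went uncalled.

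The NiO calls at the 2 times share no arrays. Of the 23 members higher at 3 days 7 (30.4%) were also higher at 1 month, which is 50% of the 14 called there. Among all genes 369 were higher at both, of 2771 higher at 3 days and 2975 higher at 1 month. Over everything tested this was 1.48% of 24933 genes, beside 7 of 45 members. The 7 were Ccnb1, Ccnb2, Cdk1, Kif20a, Mad2l1, Nuf2 and Tpx2, which act from the entry into mitosis to chromosome attachment and cleavage. Cks2, Gmnn, Top2a, Ttk, Ect2, Racgap1, Pttg1, the E cyclins and Ccna2 were called at 3 days and not at 1 month. These calls rest on the brightest probe of each gene. At 1 month Racgap1, Bub1b, Plk1 and Ccnb1 were each called by some of their kept probes only, so the overlap depends on the probe.

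A test of the difference between the NiO effects at the 2 times called 5 members higher at 1 month and 16 lower, beside 14.4% and 23.1% of all genes. Minus the array median the member counts turned to 9 and 2, and those of all 24933 genes to 8468 and 2664. The member median lay below that of all genes by -0.15, -0.29 and -0.15 under the 75th percentile, quantile normalization and the array median. The difference, 1 month minus 3 days, was negative for Gmnn (-1.45, adjusted p = 0.0023), Cks2 (-1.45, adjusted p = 0.0125), Ect2 (-1.20, adjusted p = 0.00292), Ccne2 (-1.11), Ttk (-0.92), Top2a (-0.88) and Rrm2 (-0.86). It was positive for Mcm5 (1.71, adjusted p = 0.0164), Cdt1 (1.54, adjusted p = 0.0174), Aurka (0.61), E2f1 (0.51) and Mcm7 (0.43). For all 5 the log2 fold at 3 days was negative and that at 1 month positive, with Aurka at -0.35 and 0.26 and E2f1 at -0.23 and 0.28. At 3 days Mcm5 was well above background on 2 of the 4 NiO arrays and Cdt1 on 3, so their differences rest partly on values at background. The differences of Gmnn, Ect2, E2f1 and Aurka held under every alternative and without any 1 array. That of Cdt1 held in each fit that tested it, but the filter on every array left the gene out. Those of Cks2 and Mcm5 were lost without NiO arrays 2 and 3 at 3 days.

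The control values also moved between the times. From 3 days to 1 month in clean air 24 members were higher and 6 lower, against 27.7% and 18.3% of all genes. Gmnn read 0.63, 0.97, 0.34 and 0.36 on the 1-month control arrays, against -1.66, -1.45 and -1.40 at 3 days. Its 1-month C60 arrays read 0.27, 0.40, 0.11 and 0.03 and its NiO arrays 0.17, 0.15, 0.47 and 0.45. Every 1-month array of the gene was above every 3-day array used except NiO array 3. Cks2 read -1.92, -1.34, -2.14 and -2.09 in 1-month control lungs, -2.51, -2.15, -2.51 and -2.27 after C60 and -2.05, -2.02, -1.51 and -2.13 after NiO. Those control values lay above every 3-day control and C60 value and above 3-day NiO arrays 1, 2 and 4.

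The control time change in log2 fold was 2.08 for both Cks2 (adjusted p = 3.89e-05) and Gmnn (adjusted p = 1.04e-06), 1.47 for Ttk, 0.83 for Ect2 and 0.80 for Ccnb2. It was -0.80 for Mcm7 and -0.71 for Rrm1. Over the 6 groups the 3-day control had the lowest mean for 19 of 45 members, the 3-day C60 group for 12 and the 1-month control for 8. The NiO group had the highest mean for 16 members at 3 days and for 15 at 1 month. Age, scan day and slide differ together between the times, and their parts cannot be told apart.

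At 3 days after C60, 2 of 45 members (4.44%) were higher and none lower in limma, near the background of 2.94% higher and 1.99% lower. Before adjustment 4 had a p under 0.05, all of them higher. The median over members was 0.01 on the log2 scale. This comparison uses the same 3 control arrays as NiO. Gmnn, at the values given above, had a log2 fold of 1.00 (SE 0.25, adjusted p = 0.0226), and Aurka of 0.58 (SE 0.11, adjusted p = 0.00543). Gmnn was not called without control array 1 or 2 or without either C60 array, nor Aurka without C60 array 1. Of the marker lists 3 of 6 fibroblast, 1 of 6 ciliated and 1 of 3 smooth muscle genes were lower, and their part in the member values was not tested.

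The label of this group gives n = 2 while 4 scans came with it, and only arrays 1 and 2 matched the deposited column. Over the members those 2 averaged -0.31 and -0.27, and the other 2 arrays, which entered an alternative only, 0.18 and -0.05. With all 4 arrays 5 members were called higher, but calls over all 24933 genes rose too, from 733 to 1602 higher. Before adjustment 16 members had a p under 0.05 in the higher direction and 1 in the lower. The member median was 0.22 and the all-gene median -0.02. Ccnb2, for instance, read -1.69 and -2.22 and Top2a -0.12 and -0.31 on the 2 further arrays, each above both arrays used.

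One month after C60, 2 members were higher and 2 lower, beside 7.29% and 12.4% of all genes. Minus the array median 12 of the 45 members were higher and 1 lower, but so were 6640 and 1807 of all 24933 genes. Cdt1 was higher by 1.00 (SE 0.31, adjusted p = 0.0335). Mcm7, another helicase subunit, read -0.22, -0.38, -0.10 and 0.04 in control lungs, 0.19, 0.24, 0.38 and -0.06 after C60 and -0.01, 0.15, 0.17 and 0.18 after NiO. Its C60 array 4 lay within the control range (log2 fold 0.35, SE 0.11, adjusted p = 0.0331). Kif23, as above, and Mcm4 (-0.40, SE 0.11, adjusted p = 0.0202) were the lower ones. The median over members was -0.06 and over all genes -0.09. Of the marker lists 3 of 9 endothelial and 2 of 5 club cell genes were higher and 1 of 10 macrophage genes lower, with their part in the member values not tested. The C60 effect differed between the times for 3 members, each lower at 1 month (Gmnn -1.38, Top2a -0.60, Aurka -0.53), beside 6.2% of all genes, and none was higher (4.23% of all genes); 2 members had an unadjusted p under 0.05 in that direction.

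Set directly against C60 at 3 days, NiO had 14 members higher and 1 lower, beside 5.07% and 2.72% of all genes, with a member median of 0.52 and an all-gene median of 0.06. With all 4 C60 arrays the member median was 0.28 and the all-gene median 0.04. Members higher at an unadjusted p under 0.05 then numbered 18, against 25 with the 2 arrays used. Among the called members the largest higher log2 folds were those of Ccne1 (1.17, adjusted p = 0.00153), Ect2 (0.99, adjusted p = 0.00691), Ccnb1 (0.94, adjusted p = 0.000506) and Racgap1 (0.93, adjusted p = 0.00189). No licensing or helicase gene was called in limma, and 2 had an unadjusted p under 0.05, 1 in each direction. Aurka was lower in NiO by a log2 fold of -0.93 (SE 0.11, adjusted p = 9.92e-05). Counts here moved with the arrays used, for members and for all genes. Without NiO array 1, 22 members and 4416 of all 24933 genes were higher, against 14 members and 1264 genes with it. Leaving out either C60 array leaves 1 in that group. In a fit of the 3-day C60 and NiO arrays alone limma called 0 members, and 41 of all genes higher and 7 lower. Before adjustment 19 members were higher and 1 lower (p under 0.05). At 1 month 2 members, Ccne1 (0.69, adjusted p = 0.0352) and Ccnb2 (0.50, adjusted p = 0.0254), were higher in NiO than in C60 and none lower, beside 0.834% and 0.397% of all genes. At an unadjusted p under 0.05 19 were higher and 0 lower. Marker genes were called between the same groups. At 3 days the macrophage gene Msr1 (3.09) and the neutrophil gene Cd177 (4.50) were higher in NiO than in C60, as were 3 of 9 type II and 3 of 6 fibroblast markers, and 3 of 6 B cell markers were lower. C60 and NiO means were 0.052 and 0.378 over all 10 macrophage and 0.036 and 0.336 over all 6 neutrophil genes. Msr1 and Cd177 are in these means, so the other macrophage genes hardly moved on average and the other neutrophil genes fell. At 1 month Cd68 (0.81, adjusted p = 0.026), Msr1 (1.91), Cd177 (2.11) and the type II gene Lamp3 (0.41) were higher and the heart muscle gene Myl7 (-0.74) was lower. Their part in the member values was not tested.

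Other genes of the pathway, from lists that hold no member, were read in the same fit. Their counts stand beside 11.1% higher and 7.88% lower among all genes at 3 days, and 11.9% and 18.9% at 1 month. Among 40 further mitosis genes 20 were higher and 1 lower in NiO lungs at 3 days, with a median log2 fold of 0.60, and 7 higher and 5 lower at 1 month, with a median of 0.10. The condensin subunit Smc2 (1.55), the centromere protein Cenpu (1.40) and the spindle motor Kif15 (1.40) were the highest called at 3 days. Among 36 further replication genes 8 were higher and 1 lower at 3 days (median 0.11) and 5 higher and 2 lower at 1 month (median 0.13). The origin subunit Orc1 (0.61), the Gins2 helicase subunit (0.58) and Dbf4 (0.66), which activates the origin-firing kinase Cdc7, were among them.

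Brakes on the cycle did not move one way. Of 10 CDK inhibitors and inhibitory kinases, 3 were higher and 2 lower at 3 days, beside 11.1% and 7.88% of all genes. Cdkn3, a phosphatase that acts on Cdk1 and Cdk2 and is itself transcribed in dividing cells, was higher by 1.54 (SE 0.17, adjusted p = 1.61e-05). The inhibitor gene Cdkn2a was higher by 1.22 (adjusted p = 0.00552) and the Cdk1 kinase Pkmyt1 by 0.53 (adjusted p = 0.0178). Cdkn1a, the CDK inhibitor p21, fell by 1.09 (adjusted p = 0.00474) and the kinase Wee1 by 0.60 (adjusted p = 0.00967). At 1 month the log2 fold of Cdkn1a was 0.67 and that of Cdkn3 0.64, both called.

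Of 13 mitogens and Myc genes 4 were higher and 2 lower at 3 days, beside 11.1% and 7.88% of all genes. The higher ones included the epidermal growth factor receptor ligand Ereg (1.16), the granulocyte and macrophage growth factor Csf2 (0.87) and Igf1 (0.86). Of 10 further cyclins, CDKs and Cdc25 phosphatases 1, the cyclin Ccnd2 (-0.61), was called, near the 7.88% of all genes called lower. Of 9 genes of the Rb family, other E2f and DREAM or Myb complexes limma called 0, and 1 had an unadjusted p under 0.05.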

How the data were processed

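Each array scan was turned into spot intensity values by Feature Extraction 9.5.3.1 with protocol GE1-v5_95_Feb07, per the file headers, which also name the rat build rn4. The processed intensity used here was deposited with background already subtracted by that software. The authors deposited a value table as well, a linear ratio of group over control per probe, with its making not given in the sources used here. The table was matched to group means of the scanner values and entered no test. For C60 at 3 days arrays 1 and 2 matched its column to a median absolute log2 difference of 0.00082, and all 4 arrays to 0.109.

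Spots with an outlier mark were left out unless all of a probe's spots had one, spots of a probe were averaged, and each array's 75th percentile was subtracted after log2. Of 41012 probes 28685 passed the filter, which asked for at least 1 group with all its used arrays well above background. The brightest kept probe stood for a gene, which gave 24933 genes and features; 16 tested members had more than 1 kept probe. limma 3.58.1 (R 4.3.3) fitted the 6 groups without covariates, with 15 residual degrees of freedom, and p-values were adjusted by Benjamini-Hochberg. The fit was tested on simulated data.

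Members and lists were chosen with earlier results of these data known. Values on every array are given for the 2 called members of each role with the largest fold in NiO at 3 days (1 in small roles), and for members called with C60, against most members, or in a difference between times (at most 6). Of each further list the 3 largest calls are named, and of the CDK inhibitors all, except for 1 list that is not reported here; Ube2c and the other genes given a fold were added after their values were seen. Array gene names were updated through RefSeq (GRCr8). Cdk1 is Cdc2a, Cks2 RGD1562047, Nuf2 Cdca1, Aurka Stk6 and Cdt1 Ris2 in the files. The alternatives were quantile normalization, the array median, normexp (offset 50), 2 other filters, the mean of a gene's probes, all 4 C60 arrays, a fit of the compared groups, array weights, no NiO arrays 2 and 3 at 3 days, and each array left out.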

Additional observations from a re-analysis of the deposited data

Results flagged for a closer look

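In 7 of the 80 groups of 4 arrays looked at for the named members, 1 array lay far from the other 3, where chance alone marks about 5% of groups. Rrm2 read -2.71 on NiO array 2 at 3 days and -2.10 to -2.07 on the other 3. Mcm7 read 0.72 on NiO array 1 at 3 days against 0.39 to 0.44, and Kif23 read 0.58 on NiO array 3 at 3 days against -0.06 to -0.01. At 1 month Cdt1 read -2.85 on NiO array 1 against -2.52 to -2.47, and -3.06 on C60 array 4 against -2.59 to -2.56. Mcm4 read -3.70 on control array 1 at 1 month against -3.97 to -3.94, and Kif23 read -0.70 on C60 array 2 at 1 month against -0.46 to -0.42.

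For 16 named members the NiO effect differed between the times by the interaction term of the limma fit. As log2 differences, 1 month minus 3 days, these were 1.71 for Mcm5, 1.54 for Cdt1, 0.61 for Aurka and 0.43 for Mcm7. The others were lower at 1 month, with -0.43 for Mcm4, -0.56 for Ccnb2, -0.57 for Nuf2, -0.77 for Racgap1, -0.85 for Kif23, -0.86 for Rrm2, -0.88 for Top2a, -0.92 for Ttk, -1.11 for Ccne2, -1.20 for Ect2, and -1.45 for both Cks2 and Gmnn. The C60 effect differed for 3 of them, by -1.38 for Gmnn, -0.60 for Top2a and -0.53 for Aurka.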

How the results depend on the processing

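Counts of members called moved with the scale, the arrays and the groups in the fit. NiO against control at 3 days (23 higher, 1 lower) gave 10 higher with the compared groups alone and 15 without NiO arrays 2 and 3; the lower count was 2 with the array median, 4 with array weights and 0 with normexp, the compared groups alone or no NiO arrays 2 and 3. NiO at 1 month (14 and 2) gave 27 higher with the array median, 23 with array weights and 7 with normexp, and 1 lower with quantile normalization, the array median, the filter on every array or the compared groups alone. C60 at 3 days (2 higher) gave 5 with all 4 arrays and 1 with the compared groups alone. C60 at 1 month (2 and 2) gave 5 higher with quantile normalization, 12 with the array median, 4 with array weights or without NiO arrays 2 and 3, and 1 with normexp, the filter on every array or the compared groups alone. Its lower count was 4 with array weights and 1 with quantile normalization, the array median, normexp, the filter on every array or the compared groups alone.

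NiO against C60 at 3 days (14 and 1) gave 5 higher with the array median, 0 and 0 with the compared groups alone, and 2 lower with array weights. With all 4 C60 arrays the member median of this comparison fell from 0.52 to 0.28. At 1 month (2 and 0) it gave 18 higher and 1 lower with array weights, 4 higher with the mean of probes, 1 with quantile normalization or all 4 C60 arrays, and 0 with the array median, normexp or no filter. Array weights raised the counts over all genes as well, from 208 and 99 to 1400 and 1592. The difference of the NiO effect (5 and 16) gave 9 higher with the array median, 3 with normexp, the filter on every array or no NiO arrays 2 and 3, and 10 lower with quantile normalization and 2 with the array median. That of C60 (0 and 3) gave 3 higher with the array median or array weights, 2 without NiO arrays 2 and 3, and 1 with all 4 C60 arrays or the compared groups alone. Its lower count was 8 with all 4 C60 arrays and 1 with quantile normalization or the array median. The cause of these moves was not tested.

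With each array left out in turn, higher and lower counts ran from 18 to 25 and 0 to 1 for NiO at 3 days, 6 to 13 and 1 to 2 for NiO at 1 month, 0 to 2 and 0 to 0 for C60 at 3 days, and 0 to 2 and 1 to 3 for C60 at 1 month. They ran from 6 to 22 and 1 to 2 for NiO against C60 at 3 days, 0 to 2 and 0 to 0 at 1 month, 4 to 5 and 12 to 20 for the difference of the NiO effect, and 0 to 0 and 0 to 3 for that of C60. A left-out C60 array at 3 days leaves 1, assumed to vary like the other groups. Held without any 1 array were 17 of 24 calls of NiO at 3 days and 6 of 16 at 1 month. Mcm4 in NiO at 1 month reversed after quantile normalization (0.18) and in the authors' deposited table (0.073). Over all genes NiO at 1 month gave 2975 higher and 4710 lower, and 7584 and 2211 with the array median or 3729 and 2998 after quantile normalization. NiO at 3 days gave 2771 and 1964, and 1672 and 3149 or 2231 and 2640 in the same order, with all-gene medians of 0.04, -0.13 and -0.04. C60 at 1 month gave 1817 and 3098, and 6640 and 1807 or 2423 and 1953. The difference of the NiO effect gave 3597 and 5751, and 8468 and 2664 or 5157 and 3447. With array weights NiO at 1 month gave 4930 and 7896 over all genes. C60 at 3 days gave 733 and 496, and 1602 and 1363 with all 4 arrays. NiO against C60 at 3 days gave 1264 and 678, and 41 and 7 with the compared groups alone. The number of arrays limits the precision, and Kif11, Cdc6 and Tk1 lay near background. No paired analysis was possible because the arrays carry no replicate numbers that link the groups.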
